A study of Mus musculus with 15 samples.

Results

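The IL-3 response that remained at 2 h in Ba/F3-beta cells given siRNAs against Stat5A and Stat5B was read as 1 ratio: Stat5 siRNA with IL-3 for 2 h over control siRNA without IL-3. Its 6 arrays, 1 per condition on each of the designs U74A, U74B and U74C, were taken by their titles out of 15, and each design was compared within itself. Ba/F3 is a mouse blood cell line that needs IL-3 to grow, established from a pro-B cell. The 5 conditions of the series were Stat5 siRNA at 30 min and at 2 h of IL-3, control siRNA (scramble I) at the same times, and control siRNA without IL-3. The aim stated for the series was to identify targets of Stat5. Unstimulated Stat5 siRNA cells were not analysed here, so an effect of the siRNA and an effect of IL-3 cannot be told apart in this ratio. Control siRNA with IL-3 for 2 h is therefore given beside it for most results. Its ratio shares the unstimulated arrays with the main one, and the ratio of the 2 IL-3 conditions at 2 h shares the Stat5 siRNA arrays, so the 3 ratios are set side by side and not correlated.

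IL-3 binding activates JAK kinases, which phosphorylate STAT5A and STAT5B, a pair of closely related transcription factors that then bind DNA at sites of the form TTCNNNGAA. The same receptor also switches on the RAS-MAPK and PI3K-AKT pathways. AKT keeps FOXO factors out of the nucleus, and FOXO factors turn on genes of growth arrest in cells without growth factors. MYC, induced by growth signals, pairs with MAX on the E-box CACGTG and raises genes of ribosome production.

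Signal is the deposited linear MAS5 intensity of a probe set, and a probe set entered a ratio when 1 or both arrays reached a floor of 119.866. Any signal below that floor was set to the floor, so a log2 ratio that uses one gives the smallest size the change can have, written "at least". Rose and fell are used for genes past 2-fold, which is a selection by size and no test. With 1 array per condition and design, no value here has a replicate check, and no p-value was computed. Pairs of probe sets of 1 gene gave an SD of 0.33 for a single log2 ratio over 2746 pairs, 0.27 on U74A, 0.29 on U74B and 0.41 on U74C. This spread covers differences between probe sets, and leaves out the spread between cultures. Within a design, errors shared by a whole array cancel in such pairs. Probe sets of kinds that can cross-hybridise were left out of the pairs, and ratios that used the floor were kept.

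The knockdown was read from the targeted genes first. A Stat5a probe set had a signal of 255 with Stat5 siRNA and IL-3 for 2 h, against 475 with control siRNA and IL-3 for 2 h and 543 with control siRNA and no IL-3. The Stat5 siRNA level was 53.6% of the control level at the same time and 46.8% of the unstimulated level. The other Stat5a probe set had 96.5 with Stat5 siRNA, 254 with control siRNA and 315 without IL-3, and both are of kinds that can cross-hybridise. Stat5b, on its U74B probe set, had 126 with Stat5 siRNA at 2 h, 177 with control siRNA at 2 h and 536 without IL-3. Stat5b was thus at 23.5% of the unstimulated level in Stat5 siRNA cells at 2 h and already at 33.0% in control siRNA cells, log2 ratios of -2.09 and -1.60. The Stat5b probe set on U74A was under the floor on all 5 arrays. At 2 h the Stat5b level with Stat5 siRNA was 71.3% of that with control siRNA, and its signal of 126 was close to the floor. At 30 min the U74B probe set of Stat5b had 166 with Stat5 siRNA and 499 with control siRNA. The 2 Stat5a probe sets had 277 and 150 with Stat5 siRNA at 30 min, against 548 and 316 with control siRNA.

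Of 8285 genes measured, 200 rose (2.41%) and 106 fell (1.28%) in Stat5 siRNA cells at 2 h relative to unstimulated control siRNA cells, and the median log2 ratio was -0.04. The ratio was a lower bound for 65 of the genes that rose and 24 of those that fell. For 47 of the 200 and 24 of the 106 the value came from U74C alone. Past 3-fold, 41 genes were higher and 13 lower. Of the genes that rose, 40 had 2 or more measured probe sets. All of these probe sets passed 2-fold for 18 genes and had the same direction for 39. Of 12 such genes that fell, all probe sets passed 2-fold for 5 and had the same direction for 11. With control siRNA and IL-3 for 2 h, 203 of 8294 genes rose (2.45%) and 135 fell (1.63%) relative to the same unstimulated arrays. Between the IL-3 conditions at 2 h, 41 of 8132 genes were 2-fold higher with Stat5 siRNA (0.504%) and 35 lower (0.43%).

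**Figure D1:**
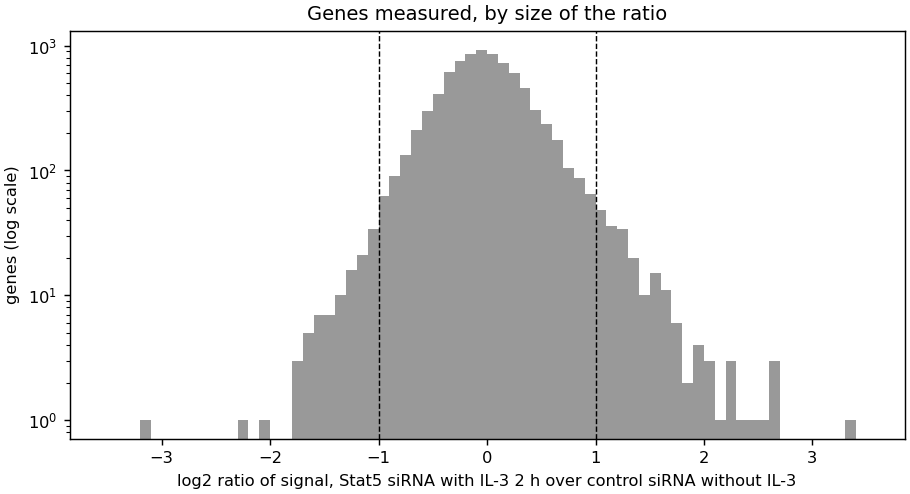
Number of measured genes (log scale) in bins of the log2 ratio of signal, Stat5 siRNA with IL-3 for 2 h over control siRNA without IL-3; dashed lines mark 2-fold. The right side holds 200 genes and the left 106, around a median of -0.04.

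The markers of the labelled cell were mostly dim. Among 17 markers of pro-B cells and the B lineage on the arrays, only Ptprc, which encodes CD45, reached the floor in Stat5 siRNA cells at 2 h, with a signal of 712 there, 618 in control siRNA cells at 2 h and 833 without IL-3. The defining B lineage genes Cd79a, Pax5 and Ebf1 were among those under it. No T or NK cell marker of 13 reached the floor in any of these 3 conditions. Of 12 erythroid and megakaryocyte markers, 6 reached it with Stat5 siRNA, 5 with control siRNA at 2 h and 6 without IL-3. Their summed signals were 7181 with Stat5 siRNA, 4630 with control siRNA and 6380 without IL-3. Of 18 myeloid and mast cell markers, 3 reached it with Stat5 siRNA, 4 with control siRNA and 4 without IL-3. Their sums were 2209 with Stat5 siRNA, 2321 with control siRNA and 2871 without IL-3, and the brightest was Gata2, a transcription factor of blood progenitors. Their part in the ratios below was not tested.

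Among the gene lists, ribosome biogenesis held the most genes that rose, and was also the list with the most measured genes. The share that rose was larger in shorter lists, such as STAT5 targets (9 of 20) and immediate early genes (10 of 25). Over all genes 2.41% rose. Of 92 measured genes of ribosome biogenesis, the making of ribosomes from rRNA and protein in the nucleolus, 23 rose and 0 fell in Stat5 siRNA cells at 2 h relative to unstimulated cells. Their median log2 ratio was 0.60, against -0.04 over all genes, and 80 of the 92 lay above 0, as did 3813 of all 8285 genes. With control siRNA and IL-3 for 2 h, 25 of 91 rose, 0 fell and the median was 0.52. Nop16 counted as risen only with control siRNA, but it was read from different probe sets in the 2 ratios. The probe sets used for it with control siRNA gave 1.57 and 1.48 with Stat5 siRNA. Between the IL-3 conditions at 2 h, 0 of 92 genes passed 2-fold in either direction, and the median ratio of Stat5 siRNA over control siRNA was 0.04. Such a count is near the share over all genes, of which 0.504% were higher and 0.43% lower between these conditions.

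Tsr1, which acts in the maturation of the small ribosomal subunit, had a signal of 1129 with Stat5 siRNA and 965 with control siRNA at 2 h, against 175 without IL-3. It rose 6.43-fold in Stat5 siRNA cells. Gnl3, the nucleolar GTPase nucleostemin, had 795 with Stat5 siRNA, 687 with control siRNA and 130 without IL-3, a 6.13-fold rise. Nop2, an rRNA methyltransferase, had 557 with Stat5 siRNA, 586 with control siRNA and 130 without IL-3. In all 3 genes the IL-3 conditions stood well above the unstimulated array and close to each other. At 30 min their signals with Stat5 siRNA were 354 for Tsr1, 221 for Gnl3 and 196 for Nop2, between the unstimulated and the 2 h values.

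Rrs1, an assembly factor of the large subunit, had 458 with Stat5 siRNA, 524 with control siRNA and 112 without IL-3. Utp4, a part of the small-subunit processome, had 1040 with Stat5 siRNA, 908 with control siRNA and 341 without IL-3. Nol11, of the same processome, had 1342 with Stat5 siRNA, 902 with control siRNA and 518 without IL-3. In Stat5 siRNA cells Rrs1 rose by at least 1.93, Utp4 by 1.61 and Nol11 by 1.37. Rrs1 was at least 0.93 with the floor doubled, a bound under 2-fold, and Nol11 was at 0.61 with it halved, under 2-fold. Wdr43 had a gene value of 1.66, the median of 3 probe sets that ran between -0.20 and 2.71, so its probe sets disagreed. Dkc1, the pseudouridine synthase dyskerin, rose by 1.07 with Stat5 siRNA, and its ratio with control siRNA was 0.78. With median scaling the Stat5 siRNA ratio was 0.95, under 2-fold. Nop56, a box C/D snoRNP core protein, was at 0.92 with Stat5 siRNA and 1.30 with control siRNA, on either side of the threshold. The difference between such pairs of ratios was not tested.

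The promoters of the ribosome biogenesis genes are shown because this list, which had the most measured genes, also held the most that rose. In RefSeq promoters of the GRCm38.p6 build, which run over 250 bases before and 50 after a gene's start, the E-box CACGTG was searched. It reads the same on both strands. It stood in 7.15% of all 32851 promoter entries. With the first entry of each gene, 18 of 87 ribosome biogenesis genes held it (20.7%), as did 31 of the 160 genes that rose and had an entry (19.4%), 11 of 91 that fell (12.1%) and 697 of 6767 measured genes (10.3%). The 17 measured ribosome biogenesis genes with the E-box had a median log2 ratio of 0.88, and 7 of them rose. The 64 without it had a median of 0.56, and 15 rose. A match in these letters is a description and shows no binding. The windows of the 7 that rose, 20 bases on either side of the E-box in capitals, read 5′ to 3′ on the gene's strand, are:
Tsr1, chr11:74898084-74898129, plus strand: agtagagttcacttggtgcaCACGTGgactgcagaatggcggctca
Nop2, chr6:125131803-125131848, plus strand: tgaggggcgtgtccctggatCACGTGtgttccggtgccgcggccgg
Wdr43, chr17:71616212-71616257, plus strand: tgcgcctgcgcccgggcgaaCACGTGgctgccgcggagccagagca
Utp4, chr8:106893635-106893680, plus strand: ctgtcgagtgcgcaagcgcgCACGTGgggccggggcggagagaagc
Nol11, chr11:107189399-107189444, minus strand: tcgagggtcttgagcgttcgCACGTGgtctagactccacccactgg
Nmd3, chr3:69721921-69721966, plus strand: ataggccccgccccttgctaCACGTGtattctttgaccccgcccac
Utp18, chr11:93885761-93885806, minus strand: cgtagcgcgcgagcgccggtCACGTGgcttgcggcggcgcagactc
The E-box began 114 bases before the start in Nmd3, 60 before it in Nop2, 43 in Nol11 and 20 in Utp18. In Tsr1, Wdr43 and Utp4 it lay within the first 50 bases after the start. The Nmd3 ratio was at least 0.23 with the floor doubled, a bound under 2-fold. The Gnl3 promoter window holds none of the 3 motifs searched.

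Myc itself rose. Its signal was 481 with Stat5 siRNA, 339 with control siRNA and 39.4 without IL-3, a rise of at least 4.02-fold with Stat5 siRNA, and its ratio between the IL-3 conditions at 2 h was 0.51. Mycn, a close relative of Myc, had 1080 with Stat5 siRNA, 1235 with control siRNA and 529 without IL-3, and rose by 1.03. Max, the shared partner, had 532 with Stat5 siRNA, 526 with control siRNA and 350 without IL-3, a log2 ratio of 0.61. Of the MAX partners that oppose MYC, Mxi1 had 152 with Stat5 siRNA, 263 with control siRNA and 351 without IL-3. Mxi1 fell by 1.21 with Stat5 siRNA, against -0.42 with control siRNA, and was at -0.55, a lower bound in size, with the floor doubled. Mxd4 was at -1.06, but its 3 probe sets ran between -1.18 and 0.13, and on U74A and U74B alone it was at -0.52. Over the 10 measured genes of the network, 2 rose and 2 fell, with a median of 0.41, which was also 0.41 with control siRNA, where 2 rose and 0 fell. The shares over all genes were 2.41% that rose and 1.28% that fell with Stat5 siRNA.

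Of 32 measured translation factors 4 rose and 0 fell, with a median of 0.19, against 3 of 31 that rose and 0.09 with control siRNA. Over all genes 2.41% rose and 1.28% fell with Stat5 siRNA. Eif1a, which acts in scanning for the start codon, had 878 with Stat5 siRNA, 830 with control siRNA and 226 without IL-3, and a gene value of 1.79 over 2 probe sets. Eef1e1, a scaffold of the tRNA synthetase complex, had 2465 with Stat5 siRNA, 2369 with control siRNA and 736 without IL-3, a rise of 1.74. The translation repressor Eif4ebp1 had 379 with Stat5 siRNA, against 202 with control siRNA and 208 without IL-3, a log2 ratio of 0.86 with Stat5 siRNA and -0.05 with control siRNA. Among 13 measured nutrient transporters 4 rose, with a median of 0.74, against 0.23 with control siRNA. Slc25a33, a mitochondrial pyrimidine nucleotide carrier, had 493 with Stat5 siRNA, 541 with control siRNA and 111 without IL-3, a rise of at least 4.12-fold. Slc7a1, a carrier of cationic amino acids, had 685 with Stat5 siRNA, 417 with control siRNA and 259 without IL-3, and its ratio was 1.40 with Stat5 siRNA and 0.69 with control siRNA. Slc20a1, a phosphate carrier, and Slc2a3, a glucose carrier, had ratios of at least 1.19 and 1.10 with Stat5 siRNA and at least 1.06 and 1.19 with control siRNA. With the floor doubled the Stat5 siRNA ratios were at least 0.19 for Slc20a1 and at least 0.40 for Slc2a3, bounds under 2-fold.

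Metabolic lists were read next, beside the 2.41% of all genes that rose and the 1.28% that fell with Stat5 siRNA. Of 26 measured genes of nucleotide and polyamine synthesis 0 passed 2-fold, with a median of 0.05, against 1 that rose and 0.01 with control siRNA. Of 23 genes of cholesterol and fatty acid synthesis 2 rose and the median was -0.04, against 1 that rose and -0.14 with control siRNA. Sqle, squalene epoxidase, had 448 with Stat5 siRNA, 278 with control siRNA and 215 without IL-3. Of 19 glycolysis genes 0 rose and 1 fell, with a median of -0.29, against 0 that fell and -0.12 with control siRNA. The gene that fell was Pfkl, the liver-type phosphofructokinase, which had 289 with Stat5 siRNA, 493 with control siRNA and 721 without IL-3, a ratio of -1.32 with Stat5 siRNA and -0.55 with control siRNA. Hk2, a hexokinase, had a log2 ratio of 0.89 with Stat5 siRNA and 0.73 with control siRNA. Hk1, another, was at -0.60 with Stat5 siRNA and 0.31 with control siRNA. Neither passed 2-fold in these ratios.

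**Figure D2:**
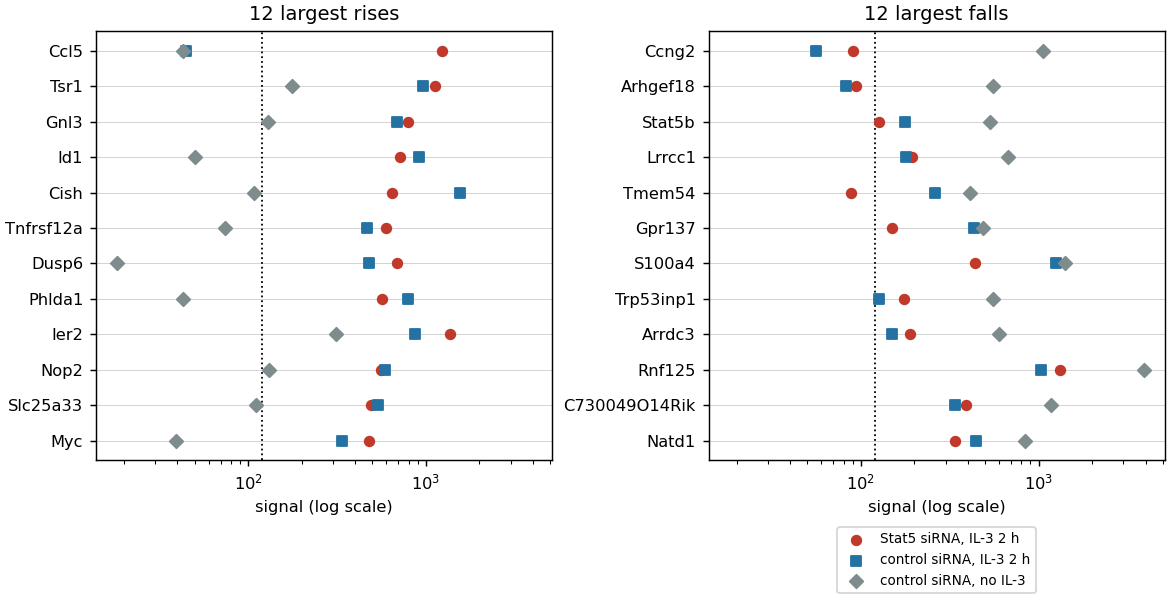
Signal (log scale) of the 12 genes with the largest rise (left) and the 12 with the largest fall (right) among genes read from a U74A or U74B probe set of a kind not marked as cross-hybridising; circles are Stat5 siRNA with IL-3 for 2 h, squares control siRNA with IL-3 for 2 h, diamonds control siRNA without IL-3, and the dotted line is the floor of 119.866. For most genes the circle and the square lie together, away from the diamond, as for Tsr1 at 1129 (circle), 965 (square) and 175 (diamond). In Ccl5, Gpr137 and S100a4 the square lies with the diamond instead.

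Most cell cycle genes lay below 0, and few passed 2-fold. Of 56 measured genes of DNA replication and S phase, 0 rose and 2 fell, but 51 lay below 0 and the median was -0.48, against -0.04 over all genes. Over all genes 1.28% fell and 4472 of 8285 lay below 0. With control siRNA and IL-3 for 2 h the median was -0.51 over 55 genes, 3 of which fell. Cdc6, which loads the replicative helicase, had 160 with Stat5 siRNA, 132 with control siRNA and 429 without IL-3. It fell by 1.42, against -1.70 with control siRNA. Hells, a chromatin remodelling helicase, had 139 with Stat5 siRNA, 138 with control siRNA and 326 without IL-3, a fall of 1.23. With the floor doubled Cdc6 was at -0.84 and Hells at -0.44, both lower bounds in size that lie under 2-fold. Cdt1, which works with Cdc6, had 401 with Stat5 siRNA, 303 with control siRNA and 782 without IL-3, a log2 ratio of -0.97 with Stat5 siRNA and -1.37 with control siRNA. Rrm2, a subunit of ribonucleotide reductase, had 284 with Stat5 siRNA, 292 with control siRNA and 518 without IL-3, a ratio of -0.87.

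Genes of G2/M and mitosis had a median of -0.35 over 55 measured genes, 53 of them below 0, and 1 fell. That gene was Ncapg, a condensin subunit, with 437 in Stat5 siRNA cells, 475 in control siRNA cells and 1008 without IL-3. With control siRNA the median was -0.31 and 2 fell. Among all genes 1.28% fell with Stat5 siRNA and 4472 of 8285 lay below 0. The spindle protein Nusap1 was at -0.78 with Stat5 siRNA and -1.20 with control siRNA, and the mitotic motor Cenpe at -0.96 with Stat5 siRNA and -0.63 with control siRNA. No test of either median was made.

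Among 23 measured regulators of G1, 0 rose and 1 fell, and the median was -0.01, against 1 of 22 that fell and -0.11 with control siRNA. The share that fell over all genes was 1.28% with Stat5 siRNA. The D cyclins drive entry into the cycle. Ccnd2 had 152 with Stat5 siRNA, against 101 with control siRNA and 34.4 without IL-3, of which only the Stat5 siRNA signal reached the floor, and its ratio was at least 0.34. Ccnd3 had 526 with Stat5 siRNA, 483 with control siRNA and 521 without IL-3. The kinase Cdk4 was at -0.21 with Stat5 siRNA and -0.48 with control siRNA, and Cdk6 at 0.44 with Stat5 siRNA and 0.67 with control siRNA. Ccne1, cyclin E1, had 132 with Stat5 siRNA, 233 with control siRNA and 233 without IL-3, a ratio of -0.82 with Stat5 siRNA and 0.00 with control siRNA. Rbl1, the pocket protein p107, had 252 with Stat5 siRNA, 251 with control siRNA and 468 without IL-3, a ratio of -0.89. E2f8, an E2F repressor read from probe sets of kinds that can cross-hybridise, was the gene that fell, by 1.69. It was at -0.91 with the floor doubled, a lower bound in size that lies under 2-fold.

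Growth-arrest genes were next. Of 21 measured CDK inhibitors and growth-arrest genes, 0 rose and 6 fell, with a median of -0.63, beside 2.41% and 1.28% of all genes. With control siRNA and IL-3 for 2 h, 0 rose, 6 fell and the median was -0.66. Between the IL-3 conditions 0 of 20 passed 2-fold, with a median of 0.14, and over all genes 0.504% were higher and 0.43% lower. The genes that fell with Stat5 siRNA were Ccng2, Trp53inp1, Tob1, Mxi1, Ddit4 and Mxd4, none of which encodes a CDK inhibitor. The equal counts do not stand for the same genes. Mxi1 and Mxd4 passed 2-fold with Stat5 siRNA only, and Cdkn2d and Gadd45a with control siRNA only.

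Ccng2, cyclin G2, a cyclin linked to arrest, had a signal of 90.6 with Stat5 siRNA and 56.3 with control siRNA at 2 h, against 1055 without IL-3. Both IL-3 signals were under the floor, and the fall was at least 8.80-fold. Trp53inp1, a p53-inducible autophagy protein, had 176 with Stat5 siRNA, 127 with control siRNA and 557 without IL-3, a fall of 1.66 with Stat5 siRNA, against -2.13 with control siRNA. Tob1, an antiproliferative protein that recruits mRNA deadenylases, had 198 with Stat5 siRNA, 142 with control siRNA and 550 without IL-3, a fall of 1.47 with Stat5 siRNA, against -1.95 with control siRNA. Ddit4, an inhibitor of mTORC1, had 231 with Stat5 siRNA, 125 with control siRNA and 508 without IL-3, and fell by 1.14 with Stat5 siRNA, against -2.03 with control siRNA. For Trp53inp1, Tob1 and Ddit4 the Stat5 siRNA signal lay above the control siRNA signal, by 0.47, 0.48 and 0.89 on the log2 scale, each under 2-fold. With the floor halved the Trp53inp1 value was -0.83, under 2-fold.

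At 30 min most of these were still near the unstimulated level. Ccng2 had 924 with Stat5 siRNA and 981 with control siRNA at 30 min, where Trp53inp1 had 530 with Stat5 siRNA and 593 with control siRNA. Tob1 had 445 with Stat5 siRNA and 598 with control siRNA. Ddit4 was already low at 30 min, at 262 with Stat5 siRNA and 158 with control siRNA.

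CDK inhibitors proper had smaller values. Cdkn2c had 391 with Stat5 siRNA, 343 with control siRNA and 631 without IL-3, a ratio of -0.69. Cdkn2d was at -0.56 with Stat5 siRNA and -1.15 with control siRNA. Cdkn1a, p21, had a gene value of 0.08 with Stat5 siRNA and 0.88 with control siRNA, over 2 probe sets. Gadd45a, a stress-induced arrest gene, had 317 with Stat5 siRNA, 230 with control siRNA and 594 without IL-3, a ratio of -0.91 with Stat5 siRNA and -1.37 with control siRNA. Btg1 and Btg2, antiproliferative relatives of Tob1, were at 0.19 and -0.07 with Stat5 siRNA and at 0.09 and -0.34 with control siRNA. Hbp1, a repressor of cycle genes, was at -0.75 with Stat5 siRNA and -0.79 with control siRNA, over 2 probe sets.

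Of 26 measured FOXO-linked starvation genes 0 rose and 4 fell, with a median of -0.40, against 5 that fell and the same median of -0.40 with control siRNA. The 4 were Ccng2, Trp53inp1, Tob1 and Ddit4, which are on the arrest list too, so the lists are not independent. The share of all genes that fell was 1.28% with Stat5 siRNA and 1.63% with control siRNA. Txnip, an inhibitor of glucose uptake, had 494 with Stat5 siRNA, 543 with control siRNA and 911 without IL-3, a ratio of -0.88. The death gene Bcl2l11, which encodes BIM, had 110 with Stat5 siRNA, 82.7 with control siRNA and 192 without IL-3, and a log2 ratio of -0.68, whose size is a lower bound. The FOXO motif GTAAACA, searched on both strands, stood in 3.65% of all promoter entries, 2.60% of measured genes and 5 of 36 FOXO-linked genes (13.9%). Among genes that fell it stood in 1 of 91 (1.10%). Of 5 measured FOXO-linked genes with it 0 passed 2-fold, and of 17 without it 3 fell. The promoter windows of Ccng2 and Tob1 hold none.

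Other genes fell by as much. Arhgef18 had 93.6 with Stat5 siRNA and 82.1 with control siRNA, against 556 without IL-3, a fall of at least 4.64-fold. Arrdc3, an arrestin-domain adaptor, had 190 with Stat5 siRNA, 151 with control siRNA and 598 without IL-3. Rnf125, a ubiquitin ligase, had 1322 with Stat5 siRNA, 1034 with control siRNA and 3912 without IL-3, and its 2 probe sets gave -1.72 and -1.57. Lrrcc1, a centrosome protein, had 193 with Stat5 siRNA, 179 with control siRNA and 671 without IL-3. In these 4 genes both IL-3 arrays stood below the unstimulated one. On U74C, Gchfr, the feedback regulator of GTP cyclohydrolase, had 1484 with Stat5 siRNA, 527 with control siRNA and 4492 without IL-3, from a probe set of a kind that can cross-hybridise. Among further U74C genes, Tk2, the mitochondrial thymidine kinase, had 277 with Stat5 siRNA, 352 with control siRNA and 740 without IL-3. On U74B, Natd1 fell by 1.53 and C730049O14Rik by 1.59 with Stat5 siRNA, and their ratios with control siRNA were -1.39 and -1.80.

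Some falls were seen with the Stat5 siRNA and were under 2-fold with control siRNA. S100a4, a calcium-binding protein, had 439 with Stat5 siRNA, against 1248 with control siRNA and 1412 without IL-3. Its ratio was -1.69 with Stat5 siRNA and -0.18 with control siRNA, and -1.51 between the IL-3 conditions. Gpr137, an orphan receptor-like membrane protein, had 150 with Stat5 siRNA, 432 with control siRNA and 489 without IL-3, with ratios of -1.71 for Stat5 siRNA and -0.18 for control siRNA. Tmem54 had 87.7 with Stat5 siRNA, 260 with control siRNA and 409 without IL-3, with ratios of -1.77 for Stat5 siRNA, a lower bound in size, and -0.65 for control siRNA. Doubling the floor put the Tmem54 ratio at -0.77, a lower bound in size that lies under 2-fold. S100a4 was low at 30 min too, at 399 with Stat5 siRNA against 1040 with control siRNA, while Gpr137 had 282 with Stat5 siRNA and 421 with control siRNA.

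**Figure D3:**
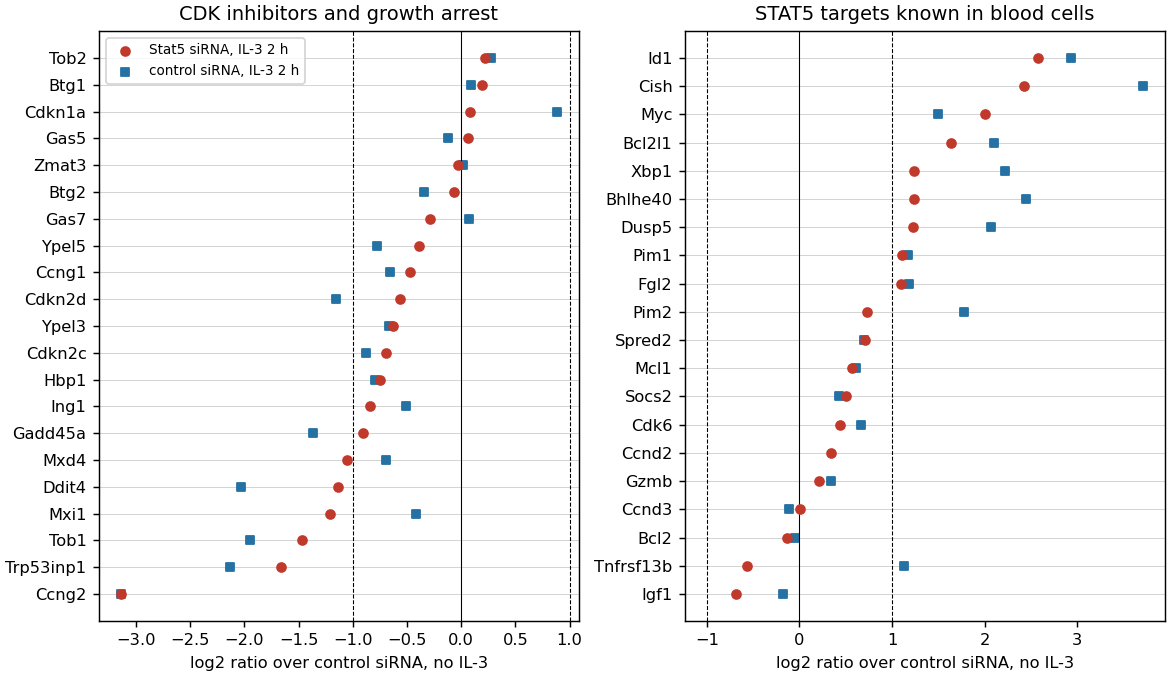
Log2 ratio of signal over control siRNA without IL-3 for each measured gene of the growth-arrest list (left) and of the STAT5 target list (right); circles are Stat5 siRNA with IL-3 for 2 h, squares control siRNA with IL-3 for 2 h, and dashed lines mark 2-fold. A missing square was not measured in that ratio. Ccng2 lies at -3.14 for both because both its IL-3 signals were set to the floor, which made the 2 values equal. Cish lies at 2.43 for the circle and 3.71 for the square, both lower bounds.

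Transcriptional repressors were mixed. Of 30 measured, 4 rose and 1 fell, with a median of -0.11, beside 2.41% and 1.28% of all genes. With control siRNA 6 of 31 rose and 2 fell. Id1, which holds helix-loop-helix factors off DNA, had 713 with Stat5 siRNA, 911 with control siRNA and 49.97 without IL-3, a rise of at least 5.95-fold. Skil, a repressor of TGF-beta signalling, had 776 with Stat5 siRNA, 546 with control siRNA and 259 without IL-3, a rise of 1.58. Ikzf4, an Ikaros family factor read on U74C, had 486 with Stat5 siRNA, 781 with control siRNA and 168 without IL-3. Bhlhe40, a basic helix-loop-helix repressor, had 816 with Stat5 siRNA, 1890 with control siRNA and 347 without IL-3, and its ratio was 1.23 with Stat5 siRNA and 2.44 with control siRNA. Id2 had 474 with Stat5 siRNA, 825 with control siRNA and 297 without IL-3, a ratio of 0.68 with Stat5 siRNA and 1.48 with control siRNA. Gfi1b, a zinc finger repressor of blood cells, had 208 with Stat5 siRNA, 144 with control siRNA and 470 without IL-3, and fell by 1.17. With the floor doubled its ratio was -0.97, a lower bound in size.

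The list of STAT5 targets known in blood cells was set beside these groups. Of 20 measured, 9 rose and 0 fell with Stat5 siRNA, with a median of 0.72, against 11 that rose and a median of 1.15 with control siRNA. Among all genes 2.41% rose with Stat5 siRNA and 2.45% with control siRNA. Between the IL-3 conditions, where 0.43% of all genes were 2-fold lower with Stat5 siRNA, 4 of 21 were. These were Cish, Bhlhe40, Pim2 and Tnfrsf13b. The list was chosen with results of these data known, so its direction is no independent evidence.

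Cish, a feedback inhibitor of cytokine receptors, had 645 with Stat5 siRNA, 1565 with control siRNA and 108 without IL-3. It was lower by 1.28 than with control siRNA and still rose at least 5.38-fold over unstimulated cells. Pim2, a survival kinase, had 198 with Stat5 siRNA, 411 with control siRNA and 81.6 without IL-3, a ratio of at least 0.73 with Stat5 siRNA and 1.78 with control siRNA. Tnfrsf13b, the receptor TACI, had 643 with Stat5 siRNA, 2091 with control siRNA and 954 without IL-3, a ratio of -0.57 with Stat5 siRNA and 1.13 with control siRNA. Cish thus rose in both IL-3 conditions, and Tnfrsf13b was below its unstimulated signal with the siRNA and above it without. Bcl2l1, which encodes the survival protein BCL-XL, had 372 with Stat5 siRNA, 512 with control siRNA and 98.0 without IL-3 and rose at least 3.11-fold. With the floor doubled its log2 ratio was at least 0.64. Xbp1, a factor of secretory cells, had 777 with Stat5 siRNA, 1539 with control siRNA and 330 without IL-3, a log2 ratio of 1.24. The MAPK phosphatase Dusp5 had 888 with Stat5 siRNA, 1593 with control siRNA and 380 without IL-3, a ratio of 1.22.

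The promoters read from the STAT5 target list were those of Tnfrsf13b and Cish, its largest falls between the IL-3 conditions at 2 h. That of Cish is shown because the motif TTCNNNGAA occurs in it more than once. That motif, which reads the same on both strands, stood in 8.30% of all promoter entries, in 6 of 22 STAT5 targets (27.3%), in 17 of 160 genes that rose (10.6%), in 6 of 91 that fell (6.59%) and in 6.72% of 6767 measured genes. The window runs 5′ to 3′ on the plus strand with the matches in capitals.
Cish, chr9:107296409-107296708, plus strand: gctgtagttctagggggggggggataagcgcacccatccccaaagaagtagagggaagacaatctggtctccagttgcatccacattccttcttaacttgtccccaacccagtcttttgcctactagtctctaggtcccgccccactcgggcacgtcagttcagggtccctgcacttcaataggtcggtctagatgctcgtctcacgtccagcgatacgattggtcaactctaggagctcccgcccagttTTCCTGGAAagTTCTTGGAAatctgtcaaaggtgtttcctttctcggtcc
The matches begin at the start and 11 bases after it. The promoter window of Tnfrsf13b holds none of the 3 motifs.

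The immediate early list had 25 measured genes, of which 10 rose and 0 fell, beside 2.41% and 1.28% of all genes. Its median was 0.76, the same value as with control siRNA, where 10 of 24 rose and 1 fell. Phlda1, a pleckstrin homology-like protein, had 565 with Stat5 siRNA, 792 with control siRNA and 43.0 without IL-3. Ier2 had 1376 with Stat5 siRNA, 874 with control siRNA and 313 without IL-3, a 4.40-fold rise. Ier2 was higher still at 30 min, at 3353 with Stat5 siRNA and 3487 with control siRNA. Egr2, an early zinc finger factor, had 25.9 without IL-3, 1939 with Stat5 siRNA and 2238 with control siRNA at 30 min, and 218 with Stat5 siRNA and 309 with control siRNA at 2 h. Of 16 measured genes of MAPK feedback 6 rose and 0 fell, with a median of 0.85, against 8 of 17 that rose and a median of 0.82 with control siRNA. Dusp6, an ERK phosphatase, had 687 with Stat5 siRNA, 480 with control siRNA and 18.2 without IL-3, and both its probe sets passed 2-fold. Spred1, a RAS pathway inhibitor, had a gene value of 1.33 over 4 probe sets that ran between 0.66 and 2.14. Tnfrsf12a, a receptor of the TNF family on no signalling list, had 597 with Stat5 siRNA, 467 with control siRNA and 74.4 without IL-3, a rise of at least 4.98-fold. Genes read on U74C rose too, with a wider probe-pair spread. Lrp12, a receptor of the LDL receptor family, had 947 with Stat5 siRNA, 887 with control siRNA and 154 without IL-3. Fgd3, a CDC42 exchange factor, had 2490 with Stat5 siRNA, 2154 with control siRNA and 522 without IL-3. Both rose to like levels in the IL-3 conditions, by 2.62 and 2.25 on the log2 scale with Stat5 siRNA.

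**Figure D4:**
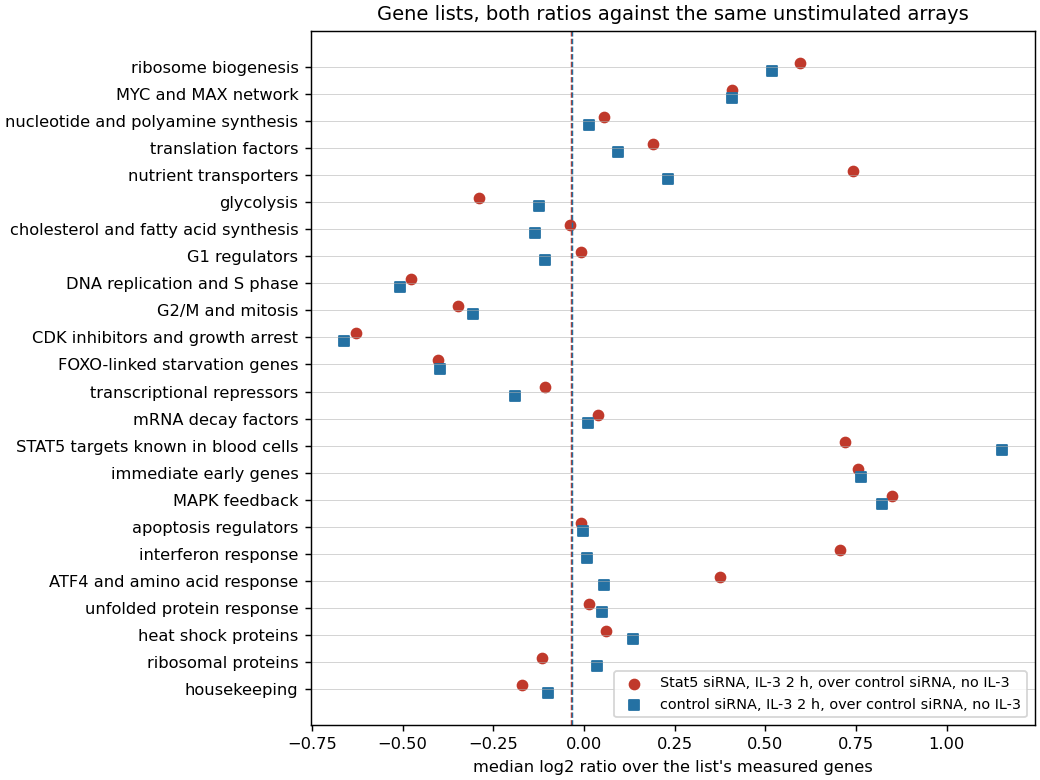
Median log2 ratio over the measured genes of each list, relative to control siRNA without IL-3; circles are Stat5 siRNA with IL-3 for 2 h and squares control siRNA with IL-3 for 2 h, and dashed lines mark the medians over all genes, -0.04 for the circles and -0.03 for the squares. Both ratios use the same unstimulated arrays. The markers stand apart for the interferon response, at 0.71 (circle) and 0.01 (square), and for STAT5 targets, at 0.72 (circle) and 1.15 (square). The interferon medians cover 33 genes for the circle and 24 for the square. Genes measured only because their Stat5 siRNA signal reached the floor had to lie above 0, and count only in the circle.

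Not every rise in the ratio was seen with control siRNA. Of 33 measured interferon-response genes 12 rose and 0 fell in Stat5 siRNA cells at 2 h, with a median of 0.71, beside 2.41% and 1.28% of all genes. The ratio was a bound for 13 of the 33, and a gene measured only because its Stat5 siRNA signal reached the floor had to come out higher. With control siRNA 0 of 24 rose, 1 fell and the median was 0.01. Between the IL-3 conditions at 2 h 12 of 32 were higher with Stat5 siRNA, and all 32 lay above 0, with a median of 0.68. The share of all genes that were higher was 0.504%. The ratio was a bound for 13 of these 32 too, and the same limit holds for them. Ccl5, a chemokine, had 1239 with Stat5 siRNA, against 44.7 with control siRNA and 42.8 without IL-3, a rise of at least 10.3-fold, the largest ratio among the genes measured. Oasl2, an antiviral synthetase-like protein, had 396 with Stat5 siRNA, 69.8 with control siRNA and 53.4 without IL-3. The interferon regulatory factor Irf7 had 329 with Stat5 siRNA, 44.2 with control siRNA and 38.5 without IL-3. A U74C probe set of Irf7, of a kind that can cross-hybridise, had 7270 with Stat5 siRNA, 1224 with control siRNA and 952 without IL-3. Its log2 ratio with Stat5 siRNA was 2.93, and it was not used for the Irf7 value. The GTPase Gbp7 had 708 with Stat5 siRNA, 266 with control siRNA and 179 without IL-3. With the floor doubled Oasl2 was at least 0.73 and Irf7 at least 0.46, bounds under 2-fold. In all of Ccl5, Oasl2, Irf7 and Gbp7 the Stat5 siRNA array stood highest. Apart from the U74C probe set of Irf7, the control siRNA signal was under the floor in the first 3, as was the unstimulated one. Gbp7 had a ratio of 0.57 with control siRNA. At 30 min Ccl5 had 1660 with Stat5 siRNA and 61.4 with control siRNA, and Irf7 had 447 with Stat5 siRNA and 41.4 with control siRNA.

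The ATF4 and amino acid response list had 7 of 32 genes that rose, 1 that fell and a median of 0.37, against 2 that rose, 2 that fell and a median of 0.06 over 30 genes with control siRNA. For all genes the Stat5 siRNA shares were 2.41% that rose and 1.28% that fell. Atf4, the transcription factor of the list, had 1236 with Stat5 siRNA, 821 with control siRNA and 376 without IL-3. Ddit3, which encodes CHOP, had 364 with Stat5 siRNA, 39.6 with control siRNA and 65.7 without IL-3. Trib3, a pseudokinase induced by ATF4, had 263 with Stat5 siRNA, 61.0 with control siRNA and 13.6 without IL-3. Atf4 rose by 1.72 with Stat5 siRNA and by 1.13 with control siRNA, whereas Ddit3 and Trib3 reached the floor only with Stat5 siRNA. With the floor doubled Ddit3 was at least 0.60 and Trib3 at least 0.14. The gene that fell was Ddit4. An effect of the Stat5 siRNA through lower Stat5 and an effect of these siRNAs as such cannot be told apart in these arrays.

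**Figure D5:**
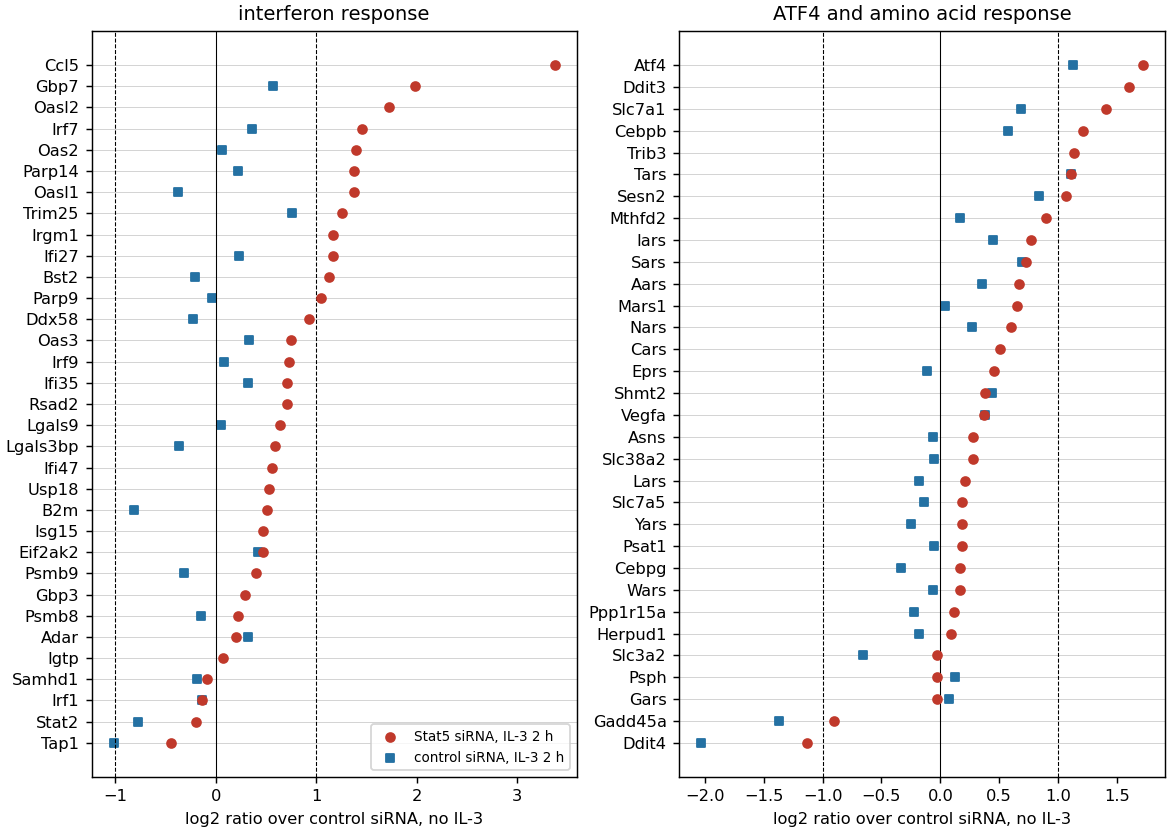
Log2 ratio of signal over control siRNA without IL-3 for each measured gene of the interferon response (left) and of the ATF4 and amino acid response (right); circles are Stat5 siRNA with IL-3 for 2 h, squares control siRNA with IL-3 for 2 h, and dashed lines mark 2-fold. A missing square was not measured in that ratio. Gbp7 lies at 1.98 for the circle and 0.57 for the square, and Atf4 at 1.72 for the circle and 1.13 for the square. For Irf7 the circle and the square were read from different probe sets.

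Some lists had medians near that of all genes. The median was -0.12 over 25 measured ribosomal protein genes, -0.17 over 14 housekeeping genes, 0.06 over 17 heat shock genes and 0.01 over 21 genes of the unfolded protein response. With control siRNA these medians were 0.04, -0.10, 0.14 and 0.05 over the same numbers of genes. Apoptosis regulators had a median of -0.01 over 18 genes, 1 of which rose, Bcl2l1. Control probe sets shared by the 3 designs gave log2 ratios that differed over the designs by a median of 0.38 and by at most 1.07 among 21 probe sets.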

How the data were processed

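Mouse Ba/F3-beta RNA was hybridised to Affymetrix U74A, U74B and U74C arrays. The deposited values are linear intensity values per probe set, computed by the authors with MAS5, per the submitters' processing notes and the design text, which also names GeneSpring. Detection calls were not used here. The trimmed mean lay between 150.037 and 150.097 on the 15 arrays before each was scaled to a common trimmed mean, leaving out 2% at each end. The floor is the signal that 14553 of 36701 non-control probe sets, the number of the authors' filters, reached on their highest of 5 arrays. A gene's value is the median of its measured probe sets. Probe sets of kinds that can cross-hybridise (_f_at, _r_at, _i_at, _x_at) were used only where a gene had no other measured in that ratio. This choice was made for each ratio, so a gene can be read from different probe sets in ratios set side by side.

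The platform annotation gave 1 symbol for 29131 probe sets, several for 724 and none for 6846. The last 2 kinds were left unnamed. The GRCm38.p6 gene table updated 0 symbols and served for names only. The 29 gene lists and the members were chosen with earlier results of these data known. Named are Stat5a and Stat5b, the 12 largest rises and 12 largest falls on U74A or U74B, the 4 of each among other genes, up to 6 genes of each list with the largest ratios, and list genes past 2-fold in only 1 of the IL-3 comparisons. Ribosome biogenesis windows, and any gene outside this rule, were chosen after values were seen. Alternatives were median and quantile scaling, other floors, the brightest probe set per gene, no cross-hybridising probe sets, U74A and U74B only, and a 3-fold threshold. The steps were tested on simulated data. Python 3.11.15, numpy 2.4.6, pandas 2.3.3 and matplotlib 3.10.9 were used. The number of arrays, 1 per condition and design, limits the precision, and no test was made.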

Additional observations from a re-analysis of the deposited data

Results flagged for a closer look

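The U74C gene 1700129C05Rik moved in opposite directions in the IL-3 conditions at 2 h. Its signal was 674 with Stat5 siRNA and 49.8 with control siRNA, against 301 without IL-3. The log2 ratio over the unstimulated array was 1.16 with Stat5 siRNA and at least -1.33 in size with control siRNA, a difference of at least 2.49. At 30 min its signals were 358 with Stat5 siRNA and 464 with control siRNA. The value rests on 1 measured probe set of a kind that can cross-hybridise, both ratios share the unstimulated array, and the difference was not tested.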

How the results depend on the processing

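The floor and the fold threshold set the counts. The 200 genes that rose became 318 with the floor halved, 125 with it doubled, 369 with signals not raised and 41 past 3-fold. The 106 that fell became 232, 49, 283 and 13 in these settings. The ribosome biogenesis median of 0.60 was 0.68 with signals not raised and 0.55 on U74A and U74B only. The DNA replication median of -0.48 was -0.40 with median scaling. The STAT5 target median of 0.72 was 0.82 with median scaling, 1.22 with the floor halved, 0.95 with a floor per design and 1.23 with signals not raised. Not raising signals removes the lower bounds by construction; the cause of the other shifts was not tested. Of 1645 recomputed ratios of named genes 0 reversed and 138 moved. Of 88 named genes past 2-fold, 37 were under it in at least 1 alternative, 29 of them with the floor doubled, among them Cdc6 (-0.84), Hells (-0.44), Mxi1 (-0.55), Gfi1b (-0.97), Ddit3 (0.60) and Trib3 (0.14). These values with the floor doubled are lower bounds in size, so they do not show that a change was under 2-fold. With the floor halved, Trp53inp1 was at -0.83, Nol11 at 0.61 and Lrrcc1 at -0.94. Median scaling shifted the median probe set ratio of a design by 0.09 on U74A, -0.12 on U74B and 0.15 on U74C, and quantile scaling by 0.01, -0.13 and 0.17. No paired analysis was possible because each condition had 1 array per design and no test was made. Signal under the floor limits what can be read of dim genes.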
